A study of Homo sapiens with 6 samples.

Results

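The 40 genes described here act in G2 phase and mitosis. They were taken by symbol, as known genes of this stage, and are 40 of the 58825 genes in the deposited table. In the GO annotation deposited with the table, 30 of the 40 carry a spindle term (450 of all genes do) and 18 a kinetochore term (153 of all genes). RNA was sequenced from MHCC97H, a hepatocellular carcinoma line of human origin, in 6 libraries. Of these, 3 came from cells carrying the control hairpin (shControl, genotype given as WT) and 3 from cells carrying a short hairpin RNA against the splicing regulator PTBP1 (shPTBP1, genotype given as a knockdown). No treatment or time point is given beyond the hairpin, and the labels do not say whether the libraries of a group came from separate cultures or which hairpin against PTBP1 was used. P-values therefore measure the spread between these libraries, which may be technical. The question put to the data is whether the mRNA of the mitotic programme differs between the groups, since the study follows cell growth after PTBP1 depletion.

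Entry into mitosis is driven by the kinase CDK1 bound to cyclin B and switched on by CDC25 phosphatases. The spindle checkpoint then holds the anaphase-promoting complex, a ubiquitin ligase, inactive until every kinetochore is attached to microtubules, after which securin and cyclin B are degraded, the chromatids part and the cell divides. In cycling cells the mRNAs of these proteins are made together late in the cycle, and in bulk RNA a lower level cannot be told apart from fewer cells in G2 and mitosis.

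Each library held between 68704509 and 85317970 counts. Counts were scaled by TMM, and CPM means counts per 1e6 scaled counts. All 40 genes were among the 19393 that passed the filter on low counts. PTBP1 itself was at 175 ± 42.6 CPM with the control hairpin and at 144 ± 6.02 with shPTBP1 (mean ± SD, n = 3 each). On the log2 scale this is -0.29 (SE, the standard error, 0.18, adjusted p = 0.953 in edgeR's quasi-likelihood test). The target mRNA therefore does not separate the groups, and a direction given here is between libraries as labelled. Of 12 hepatocyte and hepatoma markers, only the keratin genes KRT8 and KRT18 were above 1 CPM in every library. ALB, AFP, APOB, TTR and EPCAM had 0 counts in all 6. TF, APOA1, HNF4A and GPC3 did not exceed 0.32 CPM in any library, nor SERPINA1 1.32 CPM. The identity of the cell line is therefore taken from the labels. Blood-cell transcripts summed to between 780 and 1314 CPM in the libraries numbered 1 and 2 of each group. In shControl 3 and shPTBP1 3 they summed to 1.58 and 1.21 CPM, so the libraries numbered 3 stand apart in these transcripts. Over all genes compared, shControl 3 differed more from shControl 1 and 2 (chi-square per gene 66.3 and 64.0) than from the shPTBP1 libraries (33.5 to 35.6). By contrast, shPTBP1 3 differed less from shPTBP1 1 and 2 (32.6 and 30.1) than from the control libraries (35.5 to 51.9). Results are also given without the libraries numbered 3 and without shControl 3 alone. The part of these differences in the values below was not tested.

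The mitotic genes were among the well expressed genes of these cells. FPKM, fragments per kilobase per 1e6 fragments as deposited, allows levels to be compared between genes, and the mean over 6 libraries ran from 1.59 FPKM for CENPE to 95.7 FPKM for CCNB1. The median of the 40 means was 24.6 FPKM, beside 2.12 FPKM for all genes tested and 7.33 FPKM for those with at least 10 CPM. Of the 40, 24 lay in the top 10% of the genes tested. CCNB1, which encodes cyclin B1, had 95.7 ± 8.41 FPKM (SD over 6 libraries). TPX2, which nucleates spindle microtubules and activates Aurora A, had 92.6 ± 6.44 FPKM, so these neighbours in the order do not differ beyond their spread. PTTG1, the securin that inhibits separase, had 78.0 ± 9.81 FPKM and TOP2A, the topoisomerase that untangles chromatids, 78.0 ± 9.95 FPKM. The ubiquitin-conjugating enzyme UBE2C (62.9 ± 5.04 FPKM), the activator CDC20 (60.4 ± 5.74 FPKM) and the cytokinetic scaffold ANLN (57.4 ± 6.79 FPKM) followed, again with overlapping spreads. At the low end stood ESPL1, which encodes separase, with 5.98 ± 0.646 FPKM, the phosphatase CDC25C with 4.36 ± 0.622 FPKM and the kinetochore kinesin CENPE with 1.59 ± 0.419 FPKM. Securin was thus listed at 10.3 to 18.5 times the FPKM of separase in each library.

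**Figure D1:**
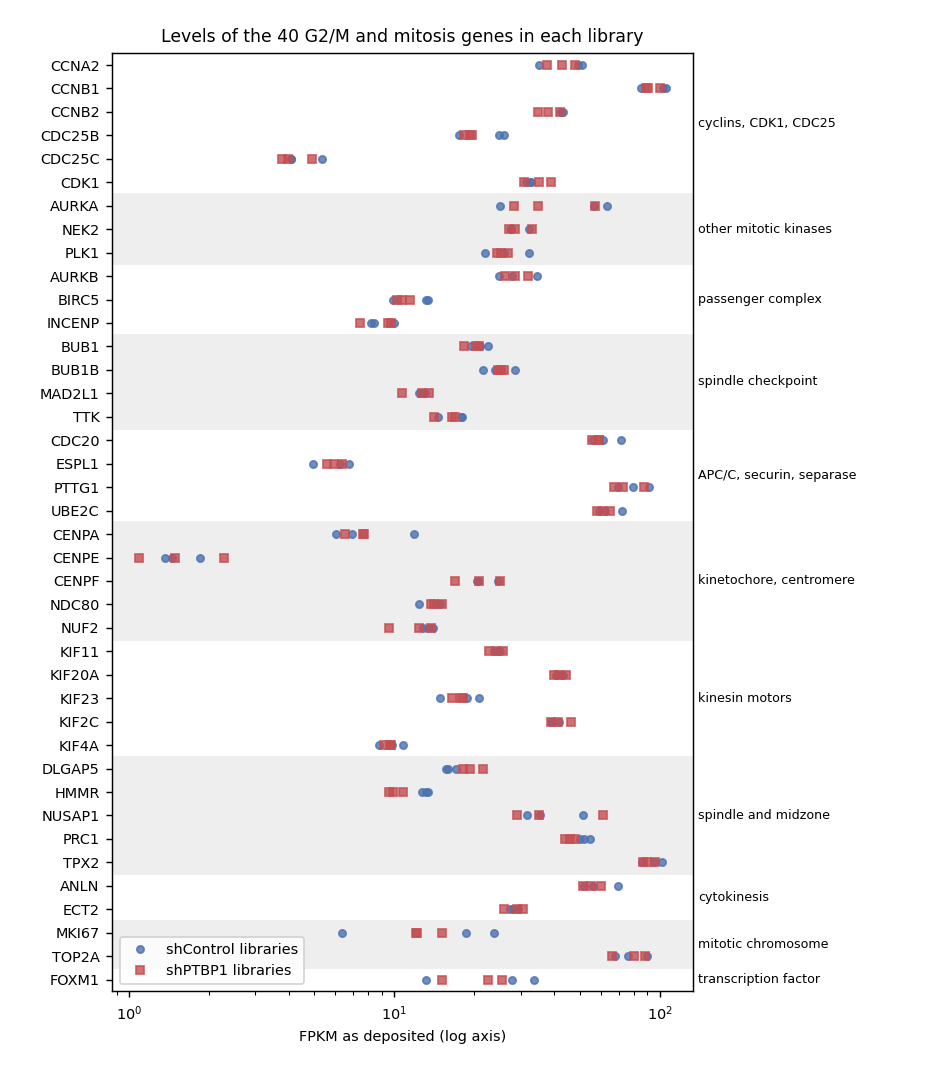
Deposited FPKM (log axis) of the 40 genes in each library, grouped by role, with circles for shControl and squares for shPTBP1. Means run from 1.59 FPKM for CENPE to 95.7 FPKM for CCNB1, and for most genes the circles and squares lie on top of each other, with MKI67, AURKA, FOXM1 and NUSAP1 the most spread.

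Ratios between partners were compared within each library. NDC80 and NUF2, partners in the kinetochore complex that grips microtubules, stood in a ratio of 0.966 to 1.47 FPKM per FPKM across the 6 libraries. BUB1B, which encodes the checkpoint protein BubR1, stood at 1.11 to 1.38 times its relative BUB1. CCNB1 stood at 2.57 to 3.38 times CDK1, its kinase partner, and AURKB at 2.69 to 4.12 times INCENP, its scaffold. The ratio of TPX2 to AURKA, which encodes Aurora A, ran from 1.51 to 4.09, and AURKA, rather than TPX2, was the member that varied.

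The promoter sequences of these genes are shown because the members share letters there that the choice of members did not use. RefSeq windows on GRCh38.p14, from 250 bases before to 50 after the annotated start, were found for 34 of the 40 (not for BIRC5, AURKA, TPX2, UBE2C, FOXM1 and TTK). Each was searched on both strands for TTTGAA or TTCGAA, the cell cycle homology region (CHR) known as a binding sequence of the DREAM and MuvB complexes, for CCAAT, the box bound by NF-Y, and for E2F-type letters (TTCCCGC as well as TTGGCGC, and also TTCGCGC, or else TTGCCGC). Stretches just before the start follow for the pair of genes with an unadjusted p under 0.05 (HMMR and DLGAP5), for PRC1 and MKI67, and for CCNB1, CCNB2 and PLK1 as classical G2/M promoters. Capitals mark CHR and CCAAT letters on either strand (TTCAAA and ATTGG are the reverse complements), adjoining or overlapping matches form 1 run of capitals, and each stretch reads 5′ to 3′ on the strand of its gene.
HMMR: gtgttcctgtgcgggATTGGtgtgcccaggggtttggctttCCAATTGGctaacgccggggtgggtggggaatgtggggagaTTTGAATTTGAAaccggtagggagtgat
DLGAP5: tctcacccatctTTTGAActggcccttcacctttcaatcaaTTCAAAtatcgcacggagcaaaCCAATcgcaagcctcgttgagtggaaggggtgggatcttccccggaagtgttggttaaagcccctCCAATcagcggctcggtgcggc
PRC1: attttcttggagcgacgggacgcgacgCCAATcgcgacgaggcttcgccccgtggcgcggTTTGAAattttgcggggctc
MKI67: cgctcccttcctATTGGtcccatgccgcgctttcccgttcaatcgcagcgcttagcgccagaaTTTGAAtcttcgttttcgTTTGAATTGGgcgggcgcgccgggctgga
CCNB1: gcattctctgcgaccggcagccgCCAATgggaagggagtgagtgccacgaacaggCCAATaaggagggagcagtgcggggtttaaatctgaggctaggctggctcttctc
CCNB2: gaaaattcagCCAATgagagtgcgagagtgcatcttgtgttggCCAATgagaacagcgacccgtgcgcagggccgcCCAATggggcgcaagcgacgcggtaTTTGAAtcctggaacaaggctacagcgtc
PLK1: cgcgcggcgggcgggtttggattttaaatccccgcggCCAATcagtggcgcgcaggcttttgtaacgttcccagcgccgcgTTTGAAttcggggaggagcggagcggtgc

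On GRCh38.p14 these stretches lie at chr5:163460522-163460631 for HMMR (plus strand), chr14:55191586-55191735 for DLGAP5 (minus), chr15:90994536-90994615 for PRC1 (minus), chr10:128126424-128126533 for MKI67 (minus), chr5:69167040-69167149 for CCNB1 (plus), chr15:59105016-59105145 for CCNB2 (plus) and chr16:23678779-23678888 for PLK1 (plus). They end at the base before the RefSeq start, and several reach into the longer gene span given in the deposited table. CHR letters stood in 24 of the 34 windows (70.6%), against 16.6% of the 27305 promoter windows. CCAAT stood in 26 of the 34 (76.5%), against 35.7%, and both together in 20 (58.8%), against 6.58%. E2F-type letters stood in 10 (29.4%), against 13.1%. HMMR, MKI67 and DLGAP5 are among 8 members (23.5%) with at least 2 CHR matches, against 2.57% of all windows. The microtubule-depolymerising kinesin KIF2C and CENPE had none of the 3 kinds, as did 46.7% of all windows. A match is a description of the letters and not a binding site. HMMR and DLGAP5 both hold CHR and CCAAT letters, and DLGAP5 alone of this pair an E2F-type match.

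**Figure D2:**
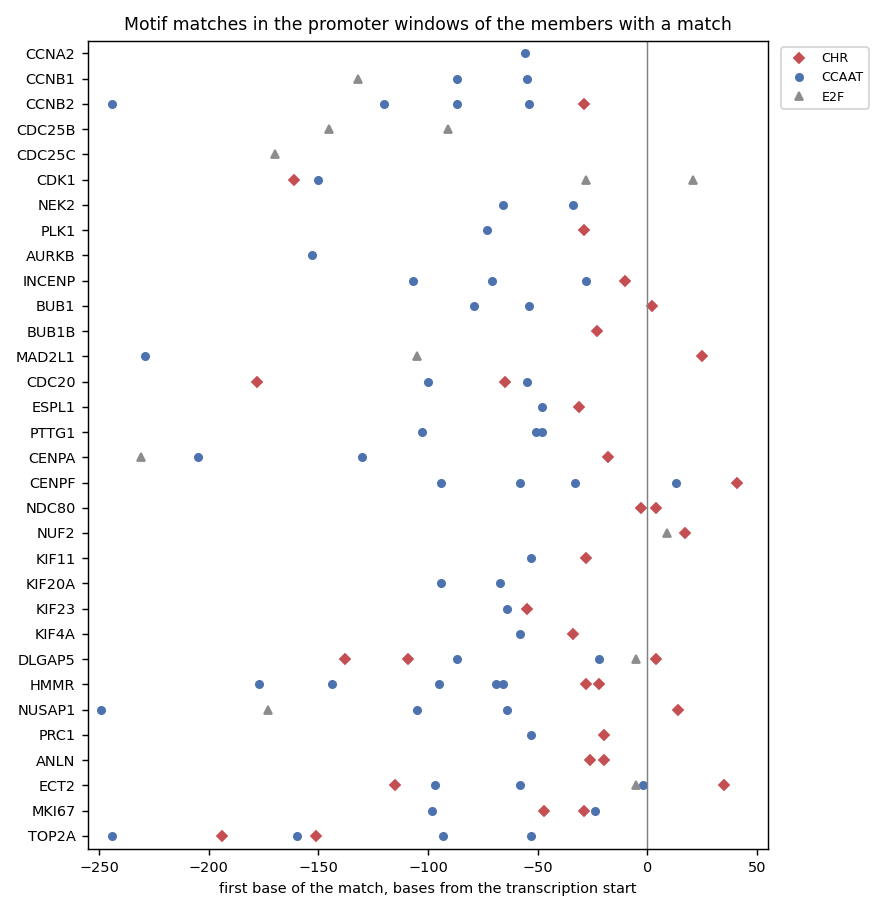
Position of the first base of each CHR (diamond), CCAAT (circle) or E2F-type (triangle) match relative to the RefSeq transcription start, for the 32 members with a window and a match. Many CHR diamonds lie just before the start: 12 of the 34 windows (35.3%, against 2.26% of all windows) have a CHR match from 50 to 10 bases before the start, a range chosen after the positions were seen.

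Between the groups, the mRNA of the mitotic programme did not pass the test for any gene. Of the 40 genes, 0 had an adjusted p under 0.05 in edgeR, the smallest being adjusted p = 0.641. At this threshold 0.0309% of all genes tested (6 genes) were called. At an unadjusted p under 0.05, 2 members stood out, HMMR lower and DLGAP5 higher, beside 5.69% of all genes (2.11% lower and 3.58% higher), and 2 of 40 is near that background. DESeq2 called 0 members, beside 0.544% of the 30866 genes with a p-value. Of those genes, 8569 had no adjusted p and could not be called, so this share is a low estimate. DESeq2 found an unadjusted p under 0.05 for HMMR and DLGAP5 as well, beside 4.42% of the 30866 genes. The median log2 fold change of the members was -0.04, beside -0.01 for all genes tested, with 25 below 0 and 15 above, and the range was -0.35 to 0.31.

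Because the genes are well expressed, the size of a difference that these libraries allow can be given. The 95% interval of the log2 fold change lay within 2-fold in either direction for 37 of the 40 genes and within 1.5-fold for 33, whereas it lay within 2-fold for 57.1% of all genes tested and for 88.7% of those with at least 10 CPM. The 3 genes whose interval reached beyond 2-fold were MKI67 (-1.29 to 0.72), AURKA (-1.16 to 0.68) and FOXM1 (-1.06 to 0.62). No member had an absolute log2 fold change above 0.5. With 3 libraries a group, a miss of the threshold does not show equal levels. In simulated counts with the means and library sizes of all genes tested, edgeR found 23.2% of the genes set to differ 2-fold. Of those set to differ 4-fold it found 71.9%. The genes set to differ were drawn at random from all genes tested, whose median was 2.12 FPKM, beside 24.6 FPKM for the members. These shares are therefore not those of the 40 members, for which no simulation was run.

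**Figure D3:**
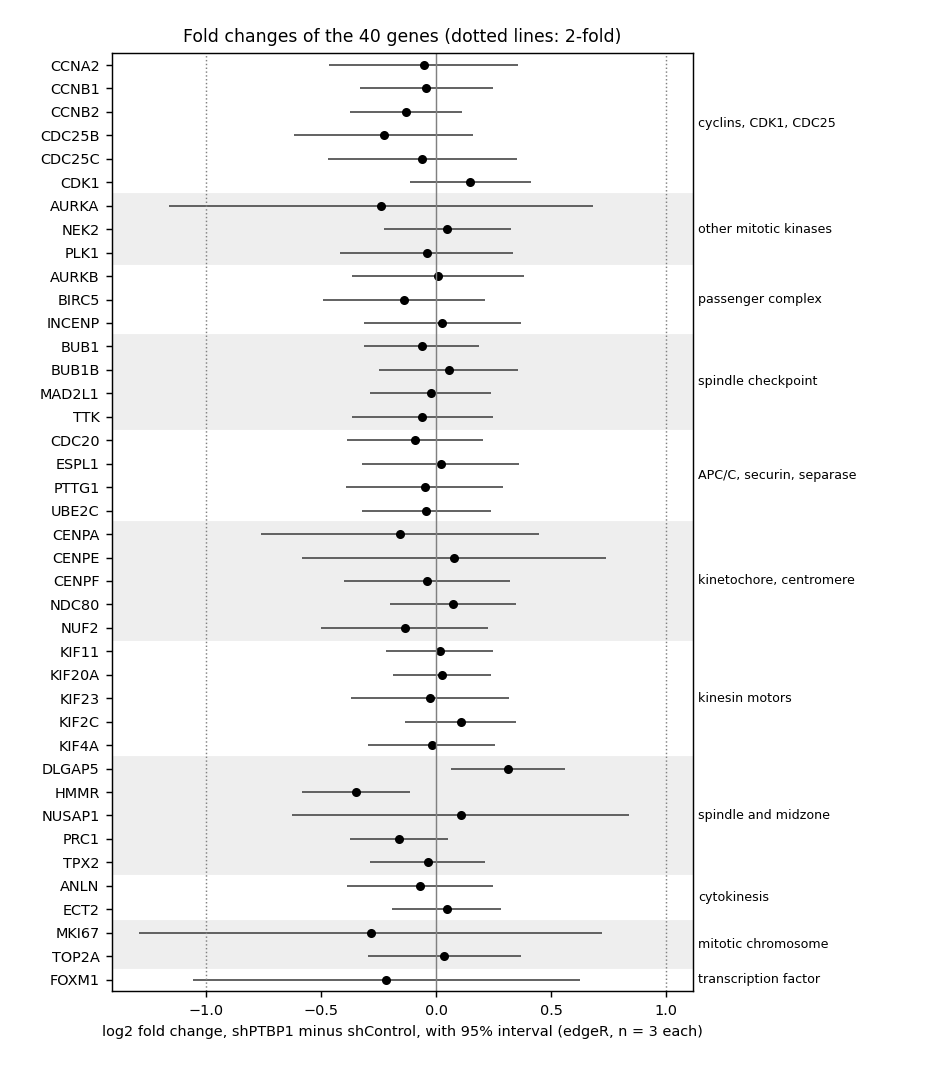
Log2 fold change, shPTBP1 minus shControl, with its 95% interval (edgeR, 3 libraries a group) for the 40 genes by role, with dotted lines at 2-fold. The points lie between -0.35 (HMMR) and 0.31 (DLGAP5), and the intervals of MKI67, AURKA and FOXM1 are the ones that cross the lower dotted line.

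Of the 6 genes that drive mitotic entry, the cyclins, CDK1 and the CDC25 phosphatases, 0 passed the test, and 5 had a log2 fold change below 0. CCNB1 (chromosome 5, 69167135 to 69178245) had 309, 294 and 241 CPM in shControl 1, 2 and 3 and 293, 263 and 263 CPM in shPTBP1 1, 2 and 3. These ranges overlap, and the log2 fold change was -0.04 (SE 0.12, adjusted p = 0.992 in edgeR). CDK1 (chromosome 10, 60778331 to 60794852) had 148, 152 and 149 CPM with the control hairpin, compared with 184, 165 and 147 with shPTBP1. Its highest library was shPTBP1 1 and its lowest shPTBP1 3, and the log2 fold change was 0.15 (SE 0.11, adjusted p = 0.957 in edgeR). CDC25B (chromosome 20, 3786772 to 3806121), a phosphatase that starts CDK1 activation, had 134, 126 and 87.7 CPM in the control libraries against 95.1, 101 and 101 in those labelled shPTBP1. Here shControl 1 and 2 lay above every other library and shControl 3 below, with a log2 fold change of -0.23 (SE 0.17, adjusted p = 0.957 in edgeR). Cyclin A2 (CCNA2) and cyclin B2 (CCNB2) had log2 fold changes of -0.05 and -0.13, and CDC25C of -0.06, none with groups apart.

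The other mitotic kinases did not pass the test either. AURKA (chromosome 20, 56369389 to 56392296) had 222, 86.5 and 193 CPM with the control hairpin, compared with 123, 99.0 and 203 with shPTBP1. Both groups held a low and a high library, and the log2 fold change was -0.24 (SE 0.39, adjusted p = 0.982 in edgeR). PLK1, which drives centrosome maturation and mitotic entry, and NEK2, which parts the centrosomes, had log2 fold changes of -0.04 and 0.05. In the chromosomal passenger complex, which corrects wrong attachments, the kinase AURKB had 0.01, its scaffold INCENP 0.03 and survivin (BIRC5) -0.14. BIRC5 had 60.1, 60.3 and 43.7 CPM in the control libraries against 52.6, 48.7 and 47.5 in those labelled shPTBP1, again with shControl 3 as the lowest of the 6.

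Checkpoint, anaphase and kinetochore genes lay close to 0. Of the 4 checkpoint genes (BUB1, BUB1B, MAD2L1 and the kinase TTK), 0 passed the test and their log2 fold changes lay between -0.06 and 0.05. The 4 genes of the anaphase machinery, CDC20, UBE2C, PTTG1 and ESPL1, lay between -0.09 and 0.02. Of the 5 kinetochore and centromere genes, CENPA, the centromeric histone H3 variant, had -0.16 and NUF2 -0.14, while CENPF, NDC80 and CENPE had -0.04, 0.07 and 0.08. CENPA shares 16943 bases with SLC35F6 on the same strand, which had 8.22 CPM in shControl 1 and 31.0 to 41.4 CPM in the others, and the part of this overlap in its values was not tested. CENPE (chromosome 4, 103105806 to 103198409) had 21.1, 15.3 and 15.9 CPM with the control hairpin, compared with 25.8, 16.8 and 12.6 with shPTBP1. Its shPTBP1 libraries were both the highest and the lowest of the 6 (log2 fold change 0.08, SE 0.28, adjusted p = 0.995 in edgeR).

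The 5 kinesins push the poles apart, move chromosomes, build the midzone or, as KIF2C does, depolymerise microtubules. Their log2 fold changes ran from -0.03 (KIF23) to 0.11 (KIF2C), and 0 passed the test. KIF20A, needed for cytokinesis, was the steadiest member, with 188, 193 and 193 CPM in the control libraries against 206, 191 and 188 in those labelled shPTBP1, a ratio of highest to lowest library of 1.10. KIF2C (chromosome 1, 44739818 to 44767767) had 171, 167 and 177 CPM with the control hairpin, compared with 203, 180 and 172 with shPTBP1. The groups overlap through shPTBP1 3 (log2 fold change 0.11, SE 0.10, adjusted p = 0.9749 in edgeR). KIF4A and KIF11, the latter the motor that drives spindle bipolarity, had -0.02 and 0.02, and the cytokinesis genes ANLN and ECT2, the activator of RhoA at the cleavage furrow, had -0.07 and 0.05.

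The spindle and midzone proteins held both members with an unadjusted p under 0.05. HMMR (chromosome 5, 163460203 to 163491941), a hyaluronan receptor that also binds spindle microtubules, had 60.0, 61.9 and 60.0 CPM in the control libraries against 50.9, 44.8 and 47.2 in those labelled shPTBP1. All 3 shPTBP1 values lay below the lowest control value. The difference of HMMR was -0.35 on the log2 scale (SE 0.10, unadjusted p = 0.00994, adjusted p = 0.641 in edgeR), so the value fails the correction over all genes. DLGAP5 (chromosome 14, 55148112 to 55191585), which encodes the microtubule-stabilising protein HURP, had 68.7, 66.3 and 71.3 CPM with the control hairpin, compared with 93.4, 83.0 and 79.6 with shPTBP1. All 3 shPTBP1 values lay above the highest control value, and the difference of DLGAP5 was 0.31 on the log2 scale (SE 0.10, unadjusted p = 0.0202, adjusted p = 0.766 in edgeR). HMMR stayed under an unadjusted p of 0.05 with any 1 library left out, whereas DLGAP5 did not without shControl 1, shControl 2 or shPTBP1 1, where its difference was 0.31, 0.29 and 0.24 on the log2 scale. PRC1 (chromosome 15, 90966040 to 90994602), the bundler of midzone microtubules, had 333, 356 and 332 CPM in the control libraries against 291, 315 and 308 in those labelled shPTBP1. Its groups did not overlap either, at a smaller size (log2 fold change -0.16, SE 0.09, unadjusted p = 0.119, adjusted p = 0.953 in edgeR). PRC1 shares 28413 bases of its span with AC068831 on the same strand (109 to 145 CPM), and the part of this overlap in its values was not tested.

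Of the 40 genes, 2 lay lower without overlap (HMMR and PRC1) and 1 higher (DLGAP5), beside 5.46% and 6.49% of all genes tested. HMMR and DLGAP5 lie on opposite sides of 0, and their ratio in FPKM, chosen after the values were seen, was 0.799, 0.855 and 0.770 with the control hairpin but 0.498, 0.493 and 0.543 with shPTBP1. Of the other members of this role, TPX2 had a log2 fold change of -0.04. NUSAP1 (chromosome 15, 41332694 to 41381050), which binds spindle microtubules near chromosomes, had 177, 120.0 and 106 CPM with the control hairpin, compared with 212, 119.8 and 102 with shPTBP1. The library numbered 1 was the highest of each group, and the log2 fold change was 0.11 (SE 0.31, adjusted p = 0.992 in edgeR).

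**Figure D4:**
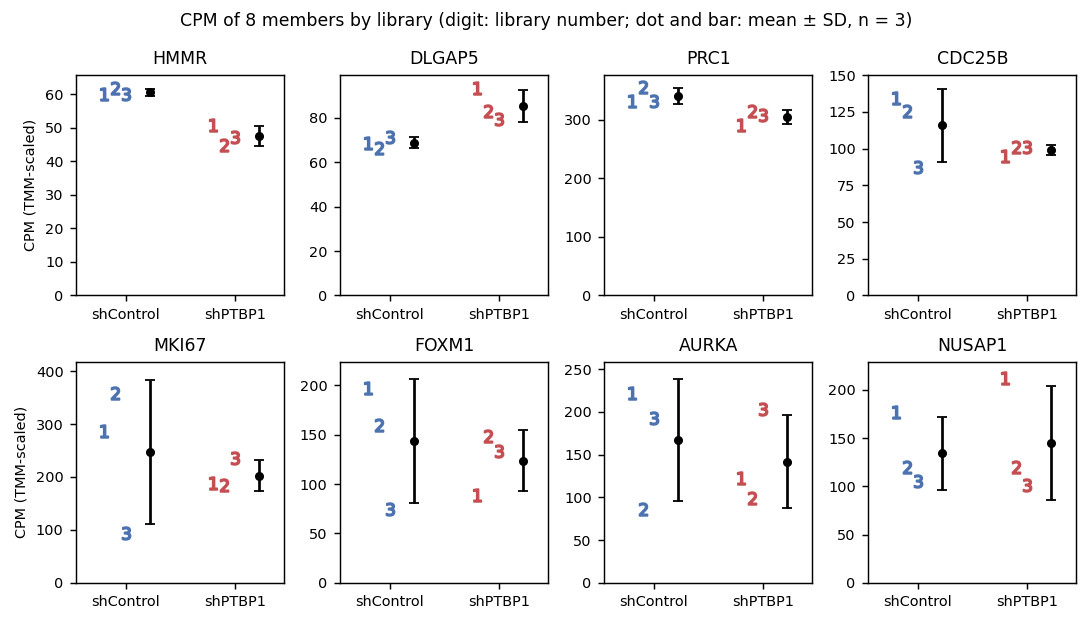
CPM of 8 members in each library (digits are library numbers), with the mean and SD of 3 libraries beside them. HMMR, DLGAP5 and PRC1 show groups that do not overlap, whereas MKI67 and FOXM1 are lowest in shControl 3 (94.98 and 74.6 CPM) and AURKA in shControl 2 (86.5 CPM).

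MKI67 and FOXM1, with AURKA above, had the 3 largest standard errors of the 40 genes. MKI67 (chromosome 10, 128096659 to 128126423), the proliferation marker Ki-67 that coats mitotic chromosomes, had 286, 359.5 and 94.98 CPM in the control libraries against 188, 184 and 236 in those labelled shPTBP1. The 3 shControl libraries held both the highest and the lowest of the 6 values, a ratio of 3.79, and the log2 fold change was -0.28 (SE 0.43, adjusted p = 0.982 in edgeR). FOXM1 (chromosome 12, 2857681 to 2877155), the transcription factor that activates many late cell-cycle genes, had 197, 159.9 and 74.6 CPM with the control hairpin, compared with 88.7, 149 and 134 with shPTBP1. It too was lowest in shControl 3, with a log2 fold change of -0.22 (SE 0.36, adjusted p = 0.982 in edgeR). FOXM1 overlaps ITFG2 and RHNO1 on the opposite strand, and whether the counting used strand is not given in the sources used here. ITFG2 was also low in shControl 3, with 22.4, 19.2 and 11.9 CPM in the control libraries against 12.01, 20.3 and 12.7 in those labelled shPTBP1, and the part of this overlap in the FOXM1 values was not tested. TOP2A, by contrast, had a log2 fold change of 0.04 and was not low in shControl 3 (516, 572 and 662 CPM in shControl, 674, 608 and 512 CPM in shPTBP1).

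The spread between libraries was otherwise small. The ratio of the highest to the lowest library had a median of 1.33 over the members, and 5 of 40 (MKI67, FOXM1, AURKA, NUSAP1 and CENPE) reached 2, against 43.8% of all genes tested and 15.5% of those with at least 10 CPM. The low values were not spread evenly over the libraries. shControl 3 was the lowest of the 6 in 17 members, against 20.8% of all genes, and shPTBP1 3 in 12, against 14.1%. The excess in shControl 3 was not particular to the members. In 111 further G2/M and mitosis genes shControl 3 was the lowest in 49 and shPTBP1 3 in 17. In 50 G1/S and replication genes these counts were 21 and 5. Of the members, shPTBP1 1 was the highest in 13 and shControl 2 in 14, against 13.8% and 15.6% of all genes. shPTBP1 2 and shPTBP1 3 were the highest in 0 members. The median deviation of the members from their own mean over the control libraries 1, 2 and 3 was 0.06, 0.05 and -0.11 on the log2 scale, and over the shPTBP1 libraries it was 0.08, -0.03 and -0.07, so the library numbered 3 was the lowest of each group.

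**Figure D5:**
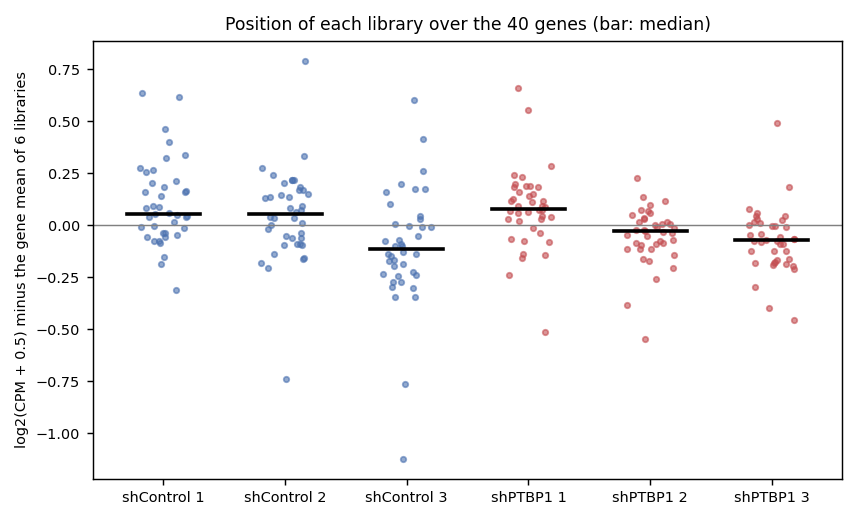
Log2(CPM + 0.5) of each member minus its mean over the 6 libraries, 1 point per gene, with a bar at the median of each library. The medians run from -0.11 in shControl 3 to 0.08 in shPTBP1 1, and the lowest points in shControl 3 are MKI67 and FOXM1.

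The direction of many members turned with the libraries compared. Within the libraries numbered 1 and 2, 24 members had a log2 fold change below 0, and in the single pair numbered 3, which allows no test, 18 had one. In 34 of 40 members (85%) the sign differed between these comparisons, which share no library, against 58.2% of 18681 genes with a value in both and 60.0% of those with at least 10 CPM. Over all 6 libraries 26 members had an absolute log2 fold change under 0.1. A value near 0 over all libraries makes opposite signs in its parts likelier. The shares are therefore not a like comparison. MKI67 had a log2 fold change of -0.79 within numbers 1 and 2 and a log2 ratio of 1.31 in number 3, and FOXM1 had -0.59 and 0.85. In the other direction CENPA had 0.25 within numbers 1 and 2 and -0.80 in number 3, and CENPF and TOP2A had 0.16 and 0.24 against -0.47 and -0.37. HMMR (-0.35 and -0.35) and DLGAP5 (0.39 and 0.16) kept their signs, as did PRC1 (-0.19 and -0.11), CCNB2, BUB1 and NDC80. For HMMR, DLGAP5 and PRC1 the kept sign follows from groups that do not overlap, and it adds nothing to that. Within numbers 1 and 2, CDC25B (-0.41), MKI67, HMMR and DLGAP5 had an unadjusted p under 0.05, 4 of 40 beside 17.7% of all genes tested, and 0 passed the correction, beside 0.319% of all genes (smallest adjusted p = 0.107 in edgeR, for MKI67). Without shControl 3 alone these 4 and BIRC5 did, 5 of 40 beside 16.6%, and 0 passed the correction, beside 0.674%.

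The share with a sign that differed between numbers 1 and 2 and number 3 was 56.8% (63 of 111) in further G2/M and mitosis genes. In G1/S and replication genes it was 60% (30 of 50), and in p53 targets and CDK inhibitors 57.1% (16 of 28). In the KEGG cell cycle pathway of the deposited table, without the members, it was 70.2% (73 of 104), also above the share of all genes. Of the 111 further G2/M and mitosis genes, edgeR called 0 after adjustment, beside 0.0309% of all genes tested. At an unadjusted p under 0.05 lay 9, 3 higher and 6 lower, beside 3.58% and 2.11% of all genes. The median log2 fold change of the 111 was -0.03. DESeq2 called 0 of the 111 after adjustment and 8 at an unadjusted p under 0.05, beside 0.544% and 4.42% of all genes with a p-value. Without overlap, 10 of the 111 lay lower and 4 higher, beside 5.46% and 6.49% of all genes tested. The kinetochore gene PMF1 had 51.9, 35.9 and 58.8 CPM with the control hairpin, compared with 32.6, 26.4 and 31.2 with shPTBP1, again with all 3 values below the control range (log2 fold change -0.70, SE 0.20, adjusted p = 0.635 in edgeR). DEPDC1 had 73.4, 71.2 and 64.8 CPM in the control libraries against 84.1, 106 and 89.6 in those labelled shPTBP1, without overlap in the other direction (log2 fold change 0.42, adjusted p = 0.667 in edgeR). CDC27, a subunit of the anaphase-promoting complex, had a log2 fold change of -0.44, without overlap between the groups (adjusted p = 0.781 in edgeR). WEE1, the kinase that holds CDK1 inactive, had the highest log2 fold change of these genes, 1.02 (SE 0.39, adjusted p = 0.858 in edgeR), and was picked after its values were seen. It stood at 26.8, 40.6 and 34.4 CPM with the control hairpin and at 116, 49.6 and 40.98 with shPTBP1, so that shPTBP1 1 was the highest library. Of 50 G1/S and replication genes, 0 were called after adjustment and 0 had an unadjusted p under 0.05 in edgeR, beside 5.69% of all genes tested. Their median was -0.03, and DESeq2 gave 0 of 51 by either threshold.

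Of 28 p53 targets and CDK inhibitors, edgeR called 0 after adjustment. An unadjusted p under 0.05 was found for 2, both higher, beside 5.69% of all genes tested (3.58% higher). CDKN1A, which encodes p21, an inhibitor of cyclin-dependent kinases, had 113, 111 and 144 CPM with the control hairpin, compared with 236, 231 and 235 with shPTBP1. The groups lay apart, with a difference of 0.93 on the log2 scale (SE 0.13, unadjusted p = 1.44e-04, adjusted p = 0.140 in edgeR and 2.61e-05 in DESeq2), so its call depends on the tool. CDKN1C, which encodes p57, was low, with 1.29, 1.02 and 2.12 CPM in the control libraries against 3.78, 3.73 and 2.06 in those labelled shPTBP1 (log2 fold change 1.11, SE 0.38, adjusted p = 0.778 in edgeR). CDKN1B, which encodes p27, had 122, 129.5 and 117 CPM with the control hairpin, compared with 167, 164 and 124 with shPTBP1, with an overlap at number 3 (log2 fold change 0.30, adjusted p = 0.895 in edgeR). Beside the difference of 0.93 in CDKN1A, CCNB1 and CDK1 had -0.04 and 0.15. The KEGG cell cycle pathway in the deposited table, without its 14 members described here, held 104 tested genes. Of these, edgeR called 0 after adjustment and 8 at an unadjusted p under 0.05, beside 5.69% of all genes tested. DESeq2 called 1, CDKN1A, beside 0.544% of all genes with a p-value.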

How the data were processed

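Polyadenylated RNA of MHCC97H cells was sequenced from 3 shControl and 3 shPTBP1 libraries made with a dUTP kit. The submitters' processing notes name cutadapt 1.9, FastQC, HISAT2 2.2.1, StringTie and hg38, without roles or settings. The authors deposited FPKM and whole-number counts per gene. These were treated as estimated counts, since 32.5% to 34.4% of the deposited counts from 1 to 40 in each library were multiples of 4, so the depth in fragments is unknown.

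Rounded counts were tested with edgeR 4.0.16 in R 4.3.3 (quasi-likelihood F test, TMM, filterByExpr, no covariate), with Benjamini-Hochberg adjustment over 19393 genes and a threshold of 0.05. The standard error was the absolute log2 fold change divided by the square root of F. In simulated data the median fitted log2 fold change, taken in the set direction, was 1.05 for genes set to differ 2-fold and 1.97 for 4-fold. Only 23.2% and 71.9% of these genes were called, and 6 of 18466 unchanged genes were. Alternatives used DESeq2 1.42.0, limma 3.58.1 on log2(FPKM + 1) or log2(FPKM + 0.1), other scalings and filters, a replicate block, number 3 as a covariate, the libraries numbered 1 and 2 alone, counts divided by 4, and each library left out. The members, gene lists and tests were chosen with earlier results of these data known. Named with values per library were members with an unadjusted p under 0.05, the 5 highest and 5 lowest log2 fold changes, CCNB1, CDK1, FOXM1 and MKI67, and up to 4 genes of each other list with the smallest p. 1 gene that this rule names is not reported here. Further members were added after their values were seen (PRC1, BIRC5, KIF20A and TOP2A). Promoter windows came from RefSeq, the first listed where a gene has several. Libraries differed by more than counting noise, with a chi-square per gene of 22.8 to 66.3 between any pair, so none was counted as a repeat. The largest values, 66.3 and 64.0, were those of shControl 3 against shControl 1 and 2, which stood at 27.1 from each other. Against shPTBP1 1, 2 and 3, shControl 3 had 33.5, 35.6 and 35.5, so it lay nearer to the other group than to its own.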

Additional observations from a re-analysis of the deposited data

How the results depend on the processing

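In 18 alternatives, 0 members and 0 of the other G2/M genes passed the adjusted threshold. The smallest adjusted p of a member was 0.107, within the libraries numbered 1 and 2 in edgeR. The median log2 fold change of the members stayed between -0.10 (without shControl 3) and 0.01 (without shControl 1). In all 18, HMMR kept a negative (-0.40 to -0.31) and DLGAP5 a positive log2 fold change (0.24 to 0.39). Where libraries were left out, groups that do not overlap fixed these signs beforehand. Of 720 values of single members, 3 moved by more than their spread between libraries (CDC25C, CENPA and TOP2A, within numbers 1 and 2), and up to 11 members changed sign in one alternative (without shControl 3).

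Members with an unadjusted p under 0.05 numbered 2, against 4 within numbers 1 and 2 and 1 to 5 with 1 library left out. Of all genes, 6 passed the adjusted threshold, against 168 in DESeq2, 63 within numbers 1 and 2, 3 with number 3 as a covariate, 1 in limma without a filter and 2 to 136 with 1 library left out, the highest without shControl 3. The causes were not tested.

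The numbers were not seen to pair the samples in deviations over 14233 genes. Same-numbered libraries correlated at -0.07, 0.13 and 0.02, and 2 of 6 libraries correlated best with their own number. The blood-cell sums, however, did split by number, with the libraries numbered 3 lowest in both groups. Whether libraries of the same number share a batch was not tested. With the replicate block 0 genes passed, against 6, and the smallest adjusted p of a member was 0.956 in edgeR.

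The deposited counts limit what can be seen of sequence copies: of 16 listed copies of members, 2 reached 1 CPM in any library (AURKAP1 and CDC20P1). Of the members, 9 overlap a gene at 1 CPM or more.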
